A study of Saccharomyces cerevisiae with 3 samples.

Results

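The transcripts described here are 10 genes by which budding yeast, Saccharomyces cerevisiae, takes up iron bound to siderophores and controls its iron supply. They were chosen by gene symbol as FIT1, FIT2 and FIT3, which encode cell wall mannoproteins, ARN1, ARN2, SIT1 and ENB1, which encode siderophore transporters, AFT1 and AFT2, which encode iron-responsive transcription factors, and HMX1, which encodes haem oxygenase. All 10 had named spots, 20 spots in all, among 5539 measured genes on an array of 13056 spots. Wild-type cells treated with 0.2 mM arsenite, As(III), for 1 h were compared directly with untreated wild-type cells on 3 two-colour arrays, each holding RNA of both. Treated cells were labelled with Cy5 except on replicate 3, where the dyes were exchanged and they carried Cy3. The sources used here give no strain background, mating type or growth medium, and no iron or siderophore content.

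Siderophores are small iron chelators that fungi and bacteria secrete. Budding yeast makes none but takes up those of other organisms, with the Fit mannoproteins holding the iron complex in the cell wall and the Arn family of transporters carrying the intact complex into the cell, each with its own range of siderophores. When iron is scarce, Aft1 and the related Aft2 accumulate in the nucleus and switch on these genes together with the reductive system of ferric reductases, the ferroxidase Fet3 and the permease Ftr1. Iron-sulfur clusters made in mitochondria signal that iron is sufficient and release the Aft factors from DNA.

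Every value below is a log2 ratio of arsenite-treated over untreated cells, averaged over the spots of a gene and expressed relative to the median of its array. The column of replicate 3 was turned for its exchanged dyes, since over all spots it correlated negatively as deposited with replicates 1 (r = -0.782) and 2 (r = -0.613). The direction is likely rather than stated, as it takes the deposited ratio to be Cy5 over Cy3. With it, the arsenite exporter gene ARR3 had 1.59, 1.73 and 2.09 on replicates 1, 2 and 3, and the arsenate reductase gene ARR2 had 3.69, 3.22 and 3.80. The other stress genes used to check the direction, OYE3, GRE2 and HSP12, had means of 4.81, 4.16 and 4.51. The logarithm was read as base 2, and were it a natural logarithm, the folds would be larger and no test against 0 would change. Replicate 2 stood apart in its deposited median over all spots, 0.54 against -0.07 and, once turned, -0.12 for replicates 1 and 3. Because nothing says that the arrays came from separate cultures, p-values measure only the spread between these arrays, which may be technical. RNA of whole cultures does not tell fewer cells with a transcript from less transcript per cell. Among all genes, 735 rose (13.3%) and 1044 fell (18.8%) by limma at an adjusted p threshold of 0.05. Later paragraphs also give fits without centring, with a dye term, or without replicate 1 or 3. In these fits the adjusted p of the genes tried followed the size of the mean alone, whatever the gene's spread. Calls lost or gained there cannot be put down to an array, the centring or the dye.

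Cells treated with arsenite had lower levels of the 3 wall mannoprotein transcripts and of the siderophore transporter SIT1, and a higher level of the transporter ARN1. FIT2 was lower by 2.79-fold, SIT1 by 2.09-fold, FIT3 by 1.95-fold and FIT1 by 1.92-fold, whereas ARN1 was higher by 1.62-fold. Transcripts of both Aft factors stayed near the array median. Of the 10 genes, 4 fell against 18.8% of all genes, 1 rose against 13.3%, and 5 did not pass the test, so that 5 of 10 changed in either direction against 32.1%. The median over the 10 genes was -0.25, beside -0.02 over all genes. The sign was the same on all 3 arrays for 7 of the 10 genes, against 58.5% of all genes. These were 5 genes below 0, against 30.9% of all genes, and 2 genes above 0, against 27.6%. The arrays did not share a sign for AFT1, AFT2 and ENB1.

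**Figure D1:**
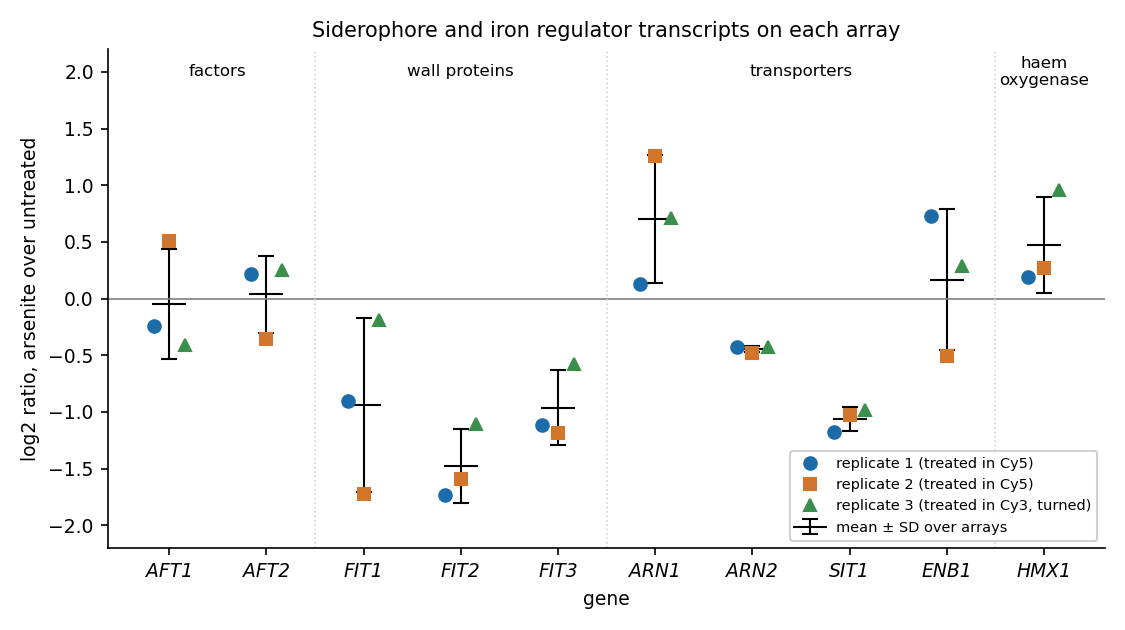
Log2 ratio of arsenite-treated over untreated cells (vertical axis) for each of the 10 genes (horizontal axis) on each of 3 arrays, with bars for the mean ± SD. FIT2, FIT3 and SIT1 lie below -0.5 on all 3 arrays, ARN1 lies above 0 on all 3, and AFT1, AFT2 and ENB1 have points on both sides of 0.

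AFT1, the main activator of the iron regulon at the cell surface, had -0.25, 0.51 and -0.41 on replicates 1, 2 and 3. Its mean was -0.05 ± 0.49 (SD, n = 3, limma adjusted p = 0.881). Replicate 2 alone was above 0. AFT2, its paralog with a partly shared set of targets, had 0.22, -0.35 and 0.25, with a mean of 0.04 ± 0.34 (SD, n = 3, limma adjusted p = 0.901). Here replicate 2 alone was below 0, so the arrays that were high for one factor gene were low for the other. The 95% intervals reached from a ratio of 0.705 to 1.33 for AFT1 and from 0.768 to 1.37 for AFT2, so the fit leaves room for modest changes in either direction. The arrays measure transcripts and say nothing of where the factor proteins were in the cell.

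The FIT genes encode mannoproteins that are attached to the wall through a GPI anchor and hold siderophore-bound iron there. FIT2 had -1.73, -1.59 and -1.11 on replicates 1, 2 and 3. All 3 arrays were low, and the mean of -1.48 ± 0.33 (SD, n = 3, limma adjusted p = 9.08e-05) placed FIT2 at rank 214 from the lowest of 5539 genes. FIT3 had -1.12, -1.19 and -0.58, and also fell (mean -0.96 ± 0.33, SD, n = 3, limma adjusted p = 0.00206). FIT1 had -0.91, -1.72 and -0.19, low on replicate 2 and close to 0 on replicate 3. Its mean was -0.94 ± 0.77 (SD, n = 3, limma adjusted p = 0.0132). That call rested on replicate 2, without which FIT1 had -0.55 (limma adjusted p = 0.0788).

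FIT3 lay above FIT2 by 0.61, 0.41 and 0.53 on replicates 1, 2 and 3, a difference of 0.52 ± 0.10 (SD, n = 3). FIT1 minus FIT3 was 0.21, -0.54 and 0.40, so these genes did not differ beyond the spread between arrays. All 3 FIT genes were less negative on replicate 3, the array with exchanged dyes, than on either other array. The mean of replicates 1 and 2 minus replicate 3 was -0.56 for FIT2, -0.57 for FIT3 and -1.13 for FIT1, beside an SD of this quantity over all genes of 0.49. Replicate 3 is the single array with exchanged dyes, so dye and array cannot be told apart here. With a dye term in the limma fit, FIT2, FIT3 and FIT1 had -1.39, -0.87 and -0.75. Duplicate spots differed by at most 0.51 for FIT2, 0.23 for FIT3 and 0.27 for FIT1, where the SD of a single spot was 0.19, 0.22 and 0.20 on replicates 1, 2 and 3.

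Among the transporters of the ARN family, 1 fell, 1 rose and 2 did not pass the test. SIT1, also known as ARN3, carries ferrioxamine B, and it had -1.18, -1.03 and -0.98 on replicates 1, 2 and 3. The 3 arrays were nearly equal, and SIT1 fell (mean -1.06 ± 0.10, SD, n = 3, limma adjusted p = 0.000599). Its duplicate spots differed by at most 0.04. ARN2, the transporter of triacetylfusarinine C, had -0.43, -0.48 and -0.43. It had the smallest spread of the 10 genes and was below 0 on every array, but its mean of -0.45 ± 0.03 (SD, n = 3) did not pass (limma adjusted p = 0.0701). The moderated standard error of 0.17, which borrows from all genes, was larger than the gene's own spread. For FIT1 and ARN1, with SDs of 0.77 and 0.57 beside a median of 0.29 over genes, the borrowing lowered the standard error. Both of those calls lean on it.

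ARN1, a transporter of ferrichrome-type siderophores, had 0.13, 1.26 and 0.71 on replicates 1, 2 and 3. It was near 0 on replicate 1 and clearly high on replicate 2. The mean was 0.70 ± 0.57 (SD, n = 3), and ARN1 rose (limma adjusted p = 0.0289). Without replicate 2 its value was 0.42 and the call was lost (limma adjusted p = 0.145). ENB1, also known as ARN4, carries enterobactin and had 0.72, -0.51 and 0.28, with a mean of 0.17 ± 0.62 (SD, n = 3, limma adjusted p = 0.614). The order of the arrays for ENB1 was the opposite of that for ARN1, and the ENB1 interval reached from a ratio of 0.795 to 1.59.

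Between transporters of this family, ARN1 lay above SIT1 by 1.31, 2.29 and 1.69 on replicates 1, 2 and 3, a mean difference of 1.76 ± 0.50 (SD, n = 3). ARN1 lay above ARN2 by 0.56, 1.74 and 1.14. ARN2 lay above SIT1 by 0.75, 0.56 and 0.55, and ENB1 lay above SIT1 by 1.90, 0.52 and 1.26. ARN1 minus ENB1 was -0.60, 1.77 and 0.43, with no common sign. Of 10 pairs within the FIT, ARN and AFT groups, 5 kept 1 sign on all 3 arrays. An exact two-sided sign-flip permutation test over 3 arrays cannot go below p = 0.25, which these 5 reached (adjusted p = 0.5 over the 10 pairs), so the differences are given as sizes and spreads. The genes of each family have related sequences, the files do not describe the probes, and how far related transcripts share hybridisation was not tested.

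HMX1 encodes the haem oxygenase that releases iron from haem inside the cell, and is a target of Aft1 in iron-poor cells. It had 0.19, 0.27 and 0.96 on replicates 1, 2 and 3. All 3 arrays were above 0, with replicate 3 the highest, and the mean of 0.47 ± 0.42 (SD, n = 3) did not pass (limma adjusted p = 0.0941). Without replicate 3 it had 0.23 (limma adjusted p = 0.477), and with a dye term in the fit it had 0.59 and passed (limma adjusted p = 0.0118). Adjusted p in both of these fits followed the size of the mean alone, so passing there is not an effect of correcting for dye. Its duplicate spots differed by up to 0.47, on replicate 2.

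From the lowest mean to the highest, the order was FIT2, SIT1, FIT3, FIT1, ARN2, AFT1, AFT2, ENB1, HMX1 and ARN1. Of the 9 pairs of neighbours in this order, SIT1 lay above FIT2 and AFT1 above ARN2 on all 3 arrays, and the remaining 7 pairs had no common sign. The order came from the same 3 arrays, which fixes the direction of each mean difference, so these signs do not test it. Across the 10 genes, Pearson's r of replicate 1 was 0.692 with replicate 2 and 0.844 with replicate 3, and that of replicate 2 with replicate 3 was 0.676. Over all genes the same values were 0.823, 0.842 and 0.679. The points of each r share the 2 arrays and their dyes.

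**Figure D2:**
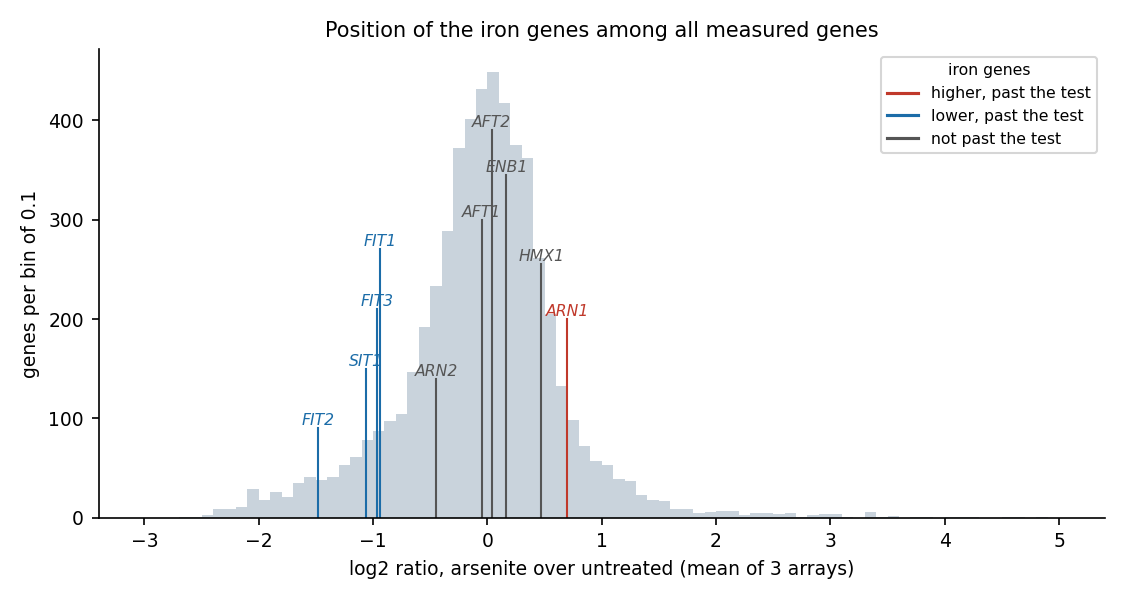
Distribution of the mean log2 ratio of arsenite-treated over untreated cells over 5539 genes (horizontal axis, counts per bin of 0.1 on the vertical axis), with a line of arbitrary height at the mean of each of the 10 genes. The genes that fell lie between -1.48 and -0.94, in the lower shoulder, and ARN1 lies at 0.70 in the upper shoulder.

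Within all 5539 genes, FIT2 lay at percentile 3.86, SIT1 at 7.80, FIT3 at 9.01 and FIT1 at 9.39, counted from the lowest mean. ARN1 lay at percentile 90.8 and HMX1 at 83.6. A larger absolute mean than that of FIT2 was found for 5.94% of all genes. The genes nearest to FIT2, by Euclidean distance over the 3 arrays, were FPR4 (distance 0.166), FTR1 (0.172), the permease of reductive iron uptake, and SAM4 (0.190), with 69 genes within a distance of 0.5. Nearest to ARN1 were CHA1 (0.235), VPS62 (0.274) and RQT4 (0.311), with 24 genes within that distance.

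The reductive iron uptake system was compared with the siderophore genes from a list of 11 measured genes. In it 4 genes fell, 0 rose and 7 did not pass by limma, with a median of -0.22. Over all genes 18.8% fell and 13.3% rose, the background for this list and the lists below. At an unadjusted p under 0.05, 0 rose and 4 fell, and of the 10 siderophore and regulator genes 2 rose and 5 fell. The share of all genes at that unadjusted threshold was not counted, so unadjusted counts here and below have no background. FET3, the multicopper ferroxidase, had -1.86, -1.38 and -1.65 on replicates 1, 2 and 3 and a mean of -1.63 ± 0.24 (SD, n = 3, limma adjusted p = 3.59e-05). FTR1 had -1.62, -1.46 and -1.12 (mean -1.40 ± 0.26, SD, n = 3, limma adjusted p = 0.000105), values close to those of FIT2 on each array. FRE4, a ferric reductase that acts on siderophore-bound iron, had -0.95, -1.18 and -1.22, and FET4, the low-affinity iron transporter, had -0.37, -1.38 and -0.82. FRE4 fell with a mean of -1.11 ± 0.14 and FET4 with a mean of -0.86 ± 0.51 (SD, n = 3, limma adjusted p = 0.000455 and 0.00824). FRE3, another reductase of siderophore iron, had -0.33 ± 0.13 (SD, n = 3) and did not pass (limma adjusted p = 0.179). The copper-loading genes CCC2 and ATX1 had means of 0.05 and 0.07.

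**Figure D3:**
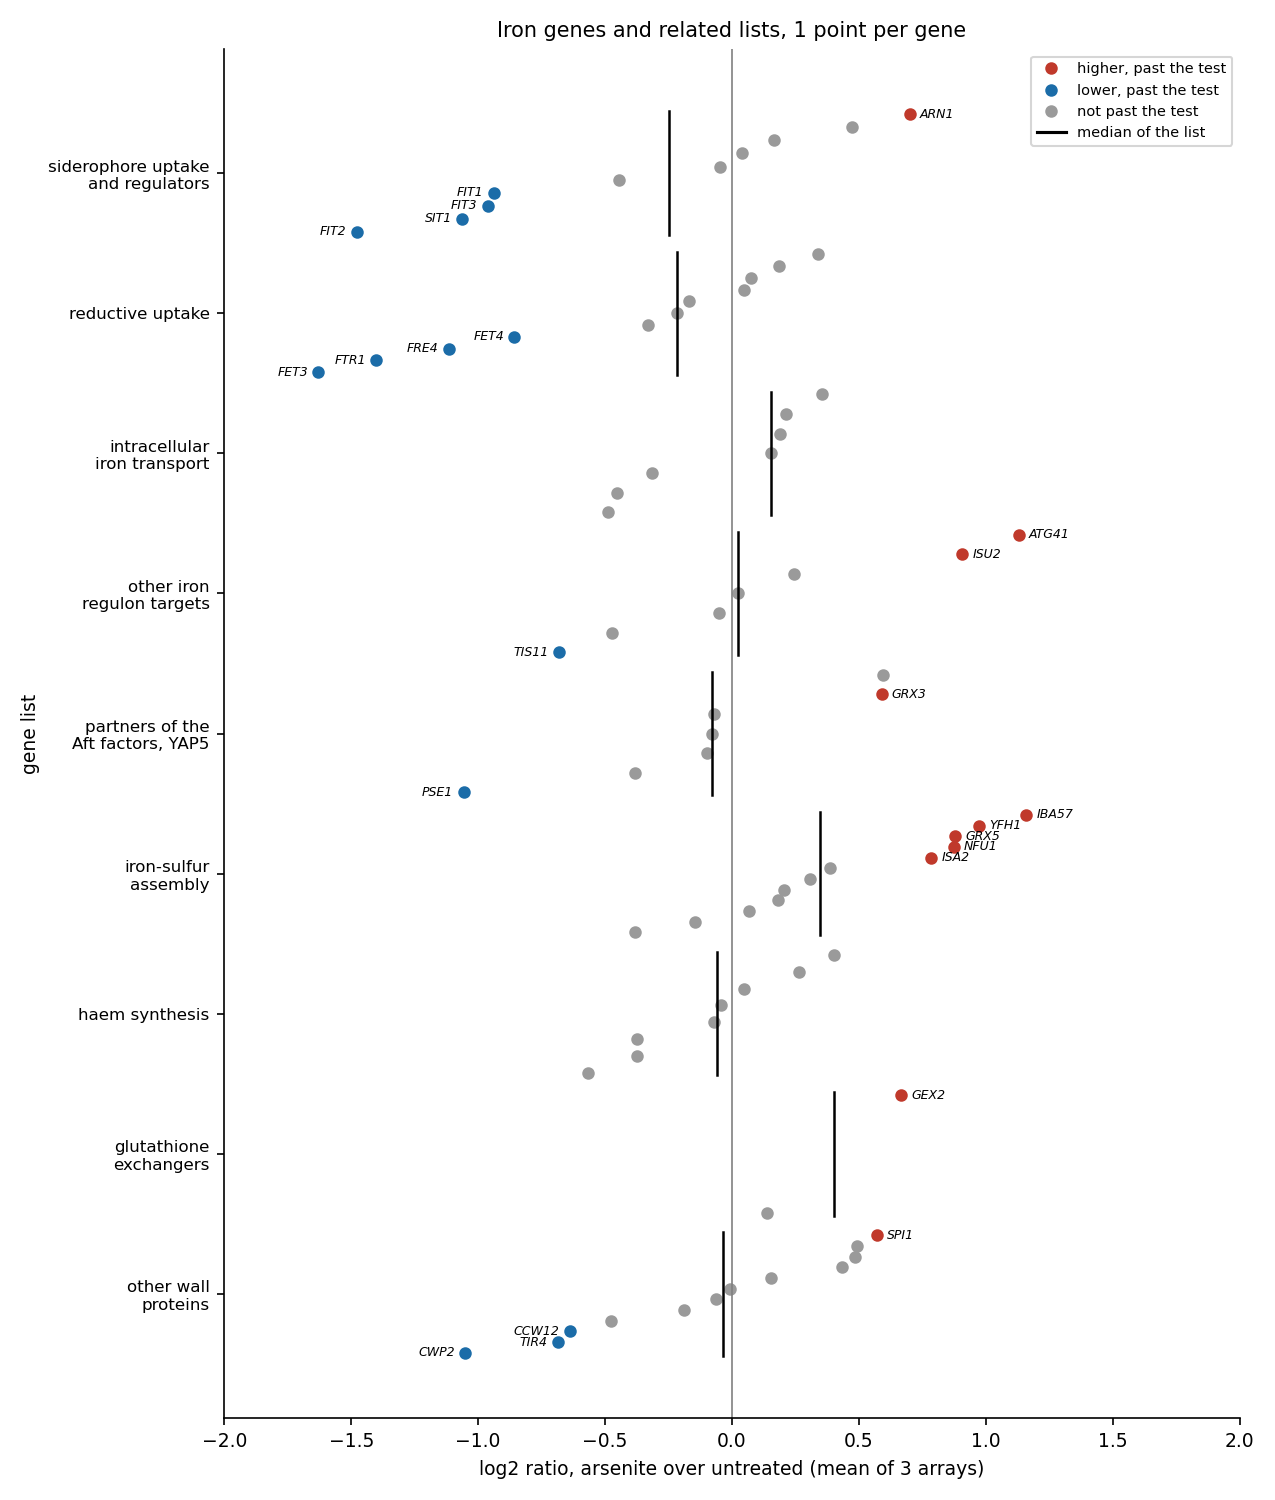
Mean log2 ratio over 3 arrays of arsenite-treated over untreated cells (horizontal axis), 1 point per gene, for the 10 siderophore and regulator genes at the top and 8 related lists below (vertical axis), with a black line at each median. Genes that passed the test are named. Those of reductive uptake lie below 0, and those of iron-sulfur assembly lie above 0.

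Of 7 measured genes for vacuolar and other intracellular iron transport, 0 passed in either direction by limma, with a median of 0.16. At an unadjusted p under 0.05, 0 rose and 1 fell. Of 7 measured genes listed as other targets of the iron regulon, 2 rose and 1 fell. ATG41, also named ICY2, rose with a mean of 1.13 ± 0.61 and ISU2, a scaffold for iron-sulfur clusters, with 0.91 ± 0.55 (SD, n = 3, limma adjusted p = 0.00219 and 0.00700). ISU2 did not pass without replicate 1 (0.78, adjusted p = 0.0732). TIS11, whose product binds and destabilises messenger RNAs of iron-using proteins in iron-poor cells, had -0.94, 0.05 and -1.16 on replicates 1, 2 and 3. It fell on average (-0.68 ± 0.65, SD, n = 3, limma adjusted p = 0.0411), but not without replicate 1 (-0.55, adjusted p = 0.260), without replicate 3 (-0.44, adjusted p = 0.130) or with the first spot alone (-0.68, adjusted p = 0.0650). Without centring TIS11 did not pass either (-0.57, adjusted p = 0.161). In the fits without replicate 1, without replicate 3 or without centring, adjusted p followed the size of the mean alone. Calls lost there cannot be put down to an array or the centring.

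Among 7 genes for partners that control the Aft factors and for the high-iron factor Yap5, 1 rose and 1 fell, with a median of -0.08. PSE1, the importin that carries Aft1 into the nucleus, fell and had -1.21, -1.31 and -0.65 on replicates 1, 2 and 3 (mean -1.06 ± 0.36, SD, n = 3, limma adjusted p = 0.00119). GRX3 and GRX4 encode glutaredoxins that pass the iron-sulfur signal to Aft1. GRX3 rose with 0.99, 0.52 and 0.26 (mean 0.59 ± 0.37, SD, n = 3, limma adjusted p = 0.0372), but not without replicate 1 (0.39, adjusted p = 0.476), without replicate 2 (0.62, adjusted p = 0.0502), without centring (0.70, adjusted p = 0.0653) or with the first spot alone (0.55, adjusted p = 0.0664). Without replicate 1 or without centring, adjusted p followed the size of the mean alone. Calls lost in those fits cannot be put down to that array or the centring. GRX4 had -0.38 ± 0.09 (SD, n = 3, limma adjusted p = 0.118) and did not pass, and MSN5, the exportin of Aft1, had -0.08 ± 0.33 (SD, n = 3).

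Genes of mitochondrial iron-sulfur cluster assembly were higher in part. Of 12 measured genes, 5 rose, 0 fell and 7 did not pass by limma, with a median of 0.35, where 13.3% of all genes rose. At an unadjusted p under 0.05, 6 rose and 0 fell, counts without a background over all genes. IBA57, of cluster assembly for aconitase-type proteins, had 1.14, 1.25 and 1.09 on replicates 1, 2 and 3 (mean 1.16 ± 0.08, SD, n = 3, limma adjusted p = 0.000309). YFH1, the yeast frataxin, had a mean of 0.97 ± 0.23, the glutaredoxin gene GRX5 0.88 ± 0.27 and NFU1, of cluster transfer, 0.87 ± 0.15 (SD, n = 3 each). The fifth was ISA2, with a mean of 0.79 ± 0.36 (SD, n = 3), not past the test without replicate 1 (0.70, adjusted p = 0.124). Adjusted p in that fit followed the size of the mean alone. The 7 that did not pass were ISA1 (0.39), SSQ1 (0.31), ARH1 (0.21), JAC1 (0.18), ATM1 (0.07), NFS1 (-0.15) and YAH1 (-0.38). ISU1, listed with ISU2 among other iron regulon targets, had a mean of 0.02 and did not pass. Of 8 genes of haem synthesis, the pathway opposite to the reaction of HMX1, 0 passed in either direction by limma, with a median of -0.06. At an unadjusted p under 0.05, 0 rose and 1 fell.

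Relatives of the siderophore genes were also measured. GEX1 and GEX2, close copies of each other that belong to the ARN family but exchange glutathione for protons, had means of 0.14 ± 0.10 and 0.67 ± 0.08 (SD, n = 3 each). GEX2 rose (limma adjusted p = 0.0118), but not with the second spot alone (0.51, adjusted p = 0.0902). It did not pass without replicate 1 either (0.63, adjusted p = 0.173), a fit in which adjusted p followed the mean alone. The copies may share hybridisation. Of 12 other cell wall mannoprotein genes, 3 fell, 1 rose and 8 did not pass, against 18.8% of all genes that fell and 13.3% that rose. Their median was -0.04. All 3 FIT genes fell, though FIT1 did not pass without replicate 2 (limma adjusted p = 0.0788). CWP2 had -1.14, -2.01 and -0.00056 on replicates 1, 2 and 3, which put replicate 2 lowest and replicate 3 highest, as for FIT1. CWP2 fell with a mean of -1.05 ± 1.01 (SD, n = 3, limma adjusted p = 0.0168), but not without replicate 2 (-0.57, adjusted p = 0.119) or with the second spot alone (-1.03, adjusted p = 0.0749). TIR4 (-0.69 ± 0.18), CCW12 (-0.64 ± 0.36) and SPI1 (0.57 ± 0.30, SD, n = 3 each) passed as well, though without replicate 1 none of these 3 did (adjusted p = 0.0870, 0.217 and 0.155). CCW12 also did not pass without replicate 2 (-0.49, adjusted p = 0.0854), nor SPI1 without replicate 3 (0.40, adjusted p = 0.184). Without centring, TIR4 (-0.57, adjusted p = 0.156), CCW12 (-0.52, adjusted p = 0.206) and SPI1 (0.69, adjusted p = 0.0750) did not pass. In the fits without replicate 1, without replicate 3 or without centring, adjusted p followed the size of the mean alone. Calls lost there cannot be put down to an array or the centring. With a single spot, TIR4 did not pass on the first (-0.52, adjusted p = 0.0606) nor SPI1 on the second (0.53, adjusted p = 0.0571).

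Genes beside the siderophore genes in the genome, by their order in the RefSeq annotation of assembly R64, did not all move with them. FIT2 and FIT3 are directly beside each other and both fell, but FRE5, on the other side of FIT3, did not pass, with 0.34, 0.07 and 0.15 on the 3 arrays (mean 0.19 ± 0.14, SD, n = 3, limma adjusted p = 0.457). FIT1 lies between HSP31 and STL1. HSP31, for a chaperone that also removes methylglyoxal, rose with a mean of 3.30 ± 0.50, and STL1, for the glycerol importer, with 0.71 ± 0.17 (SD, n = 3, limma adjusted p = 8.70e-07 and 0.00897). STL1 did not pass without replicate 1 (0.63, adjusted p = 0.178), a fit in which adjusted p followed the mean alone. HPA3 and AVT2, on either side of SIT1, had means of 0.09 ± 0.18 and -0.06 ± 0.14 (SD, n = 3 each).

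**Figure D4:**
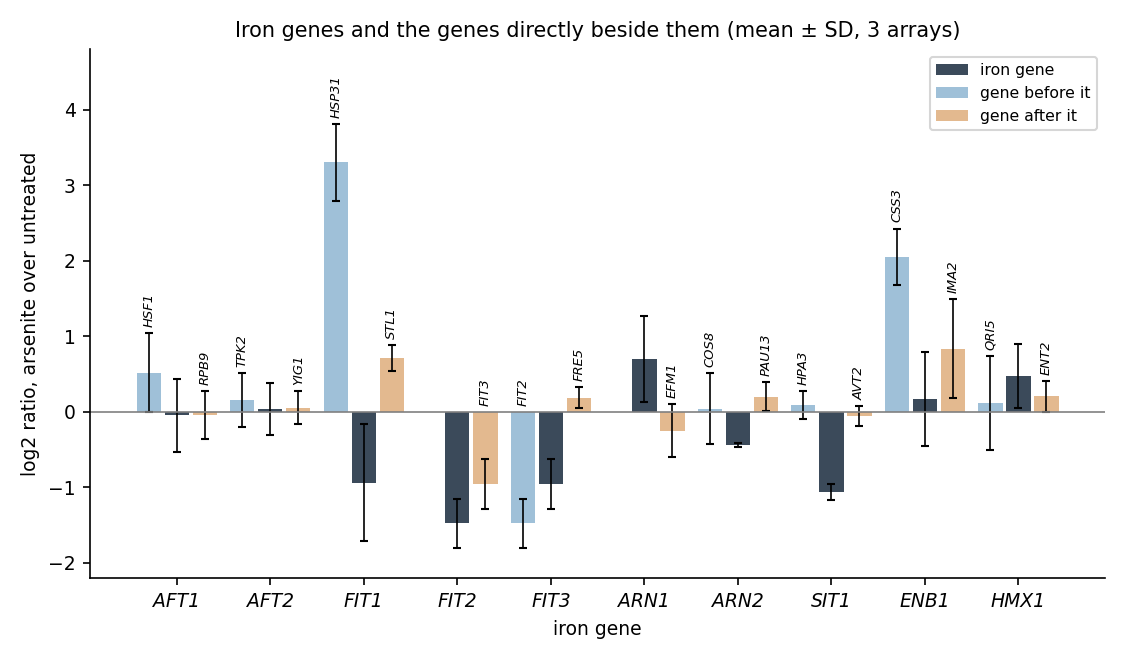
Log2 ratio of arsenite-treated over untreated cells (vertical axis, mean ± SD over 3 arrays) for each of the 10 genes in dark bars and for the gene directly before and after it in the genome annotation in light bars (horizontal axis). Where no light bar is drawn, that gene had no named spot. FIT1 at -0.94 stands between HSP31 at 3.30 and STL1 at 0.71, and SIT1 at -1.06 between HPA3 at 0.09 and AVT2 at -0.06.

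ENB1 lies between CSS3 and IMA2. CSS3, which stands before it, rose with 1.63, 2.35 and 2.17 on replicates 1, 2 and 3 (mean 2.05 ± 0.38, SD, n = 3, limma adjusted p = 1.02e-05). IMA2, for an isomaltase, had 1.04, 0.10 and 1.36 and rose (mean 0.83 ± 0.65, SD, n = 3, limma adjusted p = 0.0162), but not without replicate 1 (0.73, adjusted p = 0.100). Adjusted p in the fit without replicate 1 followed the size of the mean alone. ENB1 itself lay below CSS3 and IMA2 on each array. The measured neighbours of ARN1, ARN2, AFT1, AFT2 and HMX1 did not pass, among them HSF1, the heat shock factor gene beside AFT1, with a mean of 0.52 ± 0.52 (SD, n = 3, limma adjusted p = 0.0842).

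**Figure D5:**
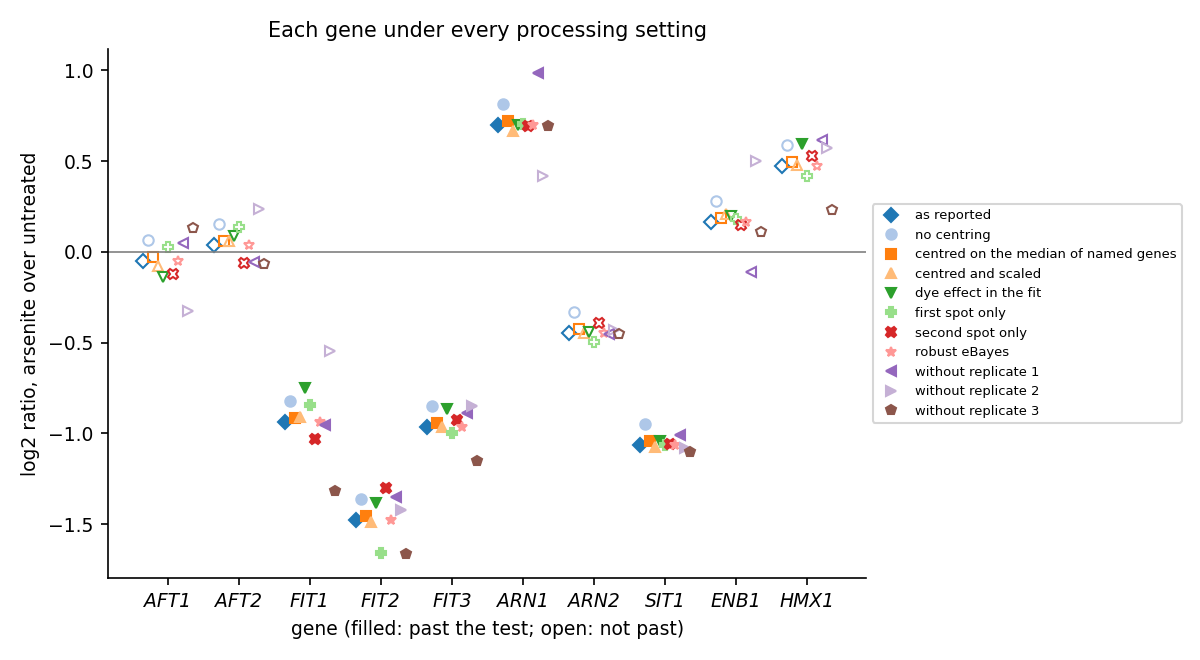
Log2 ratio of arsenite-treated over untreated cells (vertical axis) for each of the 10 genes (horizontal axis) as reported and under 10 other settings. Filled symbols passed the test and open symbols did not. FIT2, FIT3 and SIT1 are filled under all settings shown, and FIT1 and ARN1 are open without replicate 2.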

How the data were processed

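Wild-type yeast treated with arsenite was compared with untreated wild-type yeast on 3 two-colour arrays, replicate 3 with exchanged dyes, per the labels. The authors deposited 1 value per spot, read as the log2 ratio of Cy5 over Cy3, with 0 missing. The sources used here do not give the scanner, background correction, normalization, base of the logarithm or order of the channels in the ratio, and without intensities signal over background is unknown. The number of arrays limits the precision.

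Spots were named through the supplied platform annotation, in which 11138 spots have 1 symbol, 0 have several and 1918 have none. Of 5539 genes, 5534 matched the RefSeq R64 table, used for names and gene order only. Replicate 3 was multiplied by -1, each array was centred on its median over all spots, and spots were averaged per gene. No filter on low values was possible. Each gene's mean log2 ratio was compared with 0 in limma 3.58.1 (lmFit, eBayes; R 4.3.3), two-sided, with Benjamini-Hochberg adjustment over all genes and a threshold of 0.05. Residual and prior degrees of freedom were 2 and 9.91 in the fit as reported. They differ in the alternative fits. Without centring, with a dye term, and without replicate 1 or 3, adjusted p followed the size of the mean alone. P-values of those fits do not reflect each gene's spread. The fit as reported was tested on simulated data with noise independent between genes and arrays, and the alternative fits were not. Figures used Python 3.11.15, pandas 2.3.3 and matplotlib 3.10.9.

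The 10 genes and the lists were chosen with earlier results of these data known. Of the listed genes, LSO1 and ISD11 had no named spot. Named were all 10 genes, up to 4 genes past the test per list with the largest change, the arsenite response genes, measured genes directly beside the 10, and the 3 genes nearest to the highest and to the lowest of the 10. FRE3, GRX4, MSN5, CCC2, ATX1, GEX1, ISA2, TIP1, CWP1, CCW14, TIR1 and DAN1 are also named, a choice made with their values known. ISA1, SSQ1, ARH1, JAC1, ATM1, NFS1, YAH1 and ISU1 are named on the same terms. Alternatives covered centring, scaling, a dye term, single spots, robust moderation and each array left out. No sequence is printed.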

Additional observations from a re-analysis of the deposited data

How the results depend on the processing

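FIT2, FIT3 and SIT1 fell under each of the 10 alternatives tried, with each array left out in turn among them. FIT1 ranged from -1.31 to -0.55 and ARN1 from 0.42 to 0.98 with 1 array left out, and neither passed without replicate 2 (limma adjusted p = 0.0788 and 0.145). The number of the 10 genes that rose was then 0 to 1, and the number that fell 3 to 4. With a dye term in the fit HMX1 rose (0.59, limma adjusted p = 0.0118), which made 2 genes that rose, and without replicate 3 it had 0.23 (limma adjusted p = 0.477). In both fits, as without centring and without replicate 1, adjusted p followed the size of the mean alone. Calls and counts from these settings are therefore not comparable with those as reported. No centring raised the mean of every gene by 0.12, which left the median over the 10 genes at -0.13 and 603 genes falling. With 1 array left out, that median ranged from -0.38 to -0.26, and 394 to 798 genes rose and 610 to 1112 fell over all genes. The lowest of those counts came without replicate 1. AFT1, AFT2 and ENB1, which did not pass under any of these settings, changed sign under some. AFT1 had 0.066 with no centring and 0.025 with the first spot alone, and ranged from -0.33 to 0.13 with 1 array left out. AFT2 had -0.060 with the second spot alone and ranged from -0.068 to 0.23, and ENB1 ranged from -0.11 to 0.50. Each array's ratio already pairs treated with untreated RNA, so the test of the mean against 0 is a paired comparison within arrays. The labels give a single group of 3 arrays and no further pairing. Signal over background is unknown, so a weakly expressed transcript cannot be told from one that did not change.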

Other observations

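The mean of replicates 1 and 2, with the treated RNA in Cy5, minus replicate 3, with the treated RNA in Cy3, was below 0 for 9 of the 10 siderophore and regulator genes and for 52.1% of all genes. Of those 9, ARN1 (-0.013) and ARN2 (-0.022) lay close to 0. This quantity was also below 0 for 7 of 7 genes of intracellular iron transport, 5 of 5 arsenite response genes and 9 of 12 other wall mannoprotein genes. It was below 0 for 4 of 11 genes of reductive uptake, 6 of 12 of iron-sulfur assembly and 5 of 8 of haem synthesis. The counts were 4 of 7 for other iron regulon targets, 3 of 7 for partners with YAP5 and 1 of 2 for glutathione exchangers. The same quantity was below -0.5 for FIT1, FIT2, FIT3 and HMX1, and for 18.0% of all genes. Among the 12 other wall mannoprotein genes it was below -0.5 for 6, namely CWP2 (-1.58), TIP1 (-0.96), CWP1 (-0.67), CCW12 (-0.59), CCW14 (-0.55) and SPI1 (-0.52), while TIR1 (0.17), TIR4 (0.31) and DAN1 (1.02) lay above 0. It was also below -0.5 for 3 of 7 other iron regulon targets, 2 of 7 partners of the Aft factors with YAP5, 2 of 5 arsenite response genes and 1 of 8 haem synthesis genes. It was below -0.5 for 0 of 11 genes of reductive uptake, 0 of 7 of intracellular iron transport, 0 of 12 of iron-sulfur assembly and 0 of 2 glutathione exchangers. The quantity was looked at after the values were seen and was not tested, and the dye orientation of replicate 3 cannot be told apart from that array itself.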
